A study of Mus musculus with 6 samples.

Results

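ANKRD2, an ankyrin repeat protein of striated muscle, was examined together with proteins of the Z-disc, the structure that borders each sarcomere. The genes were chosen by their names: ANKRD2, LDB3, MYOT, ACTN2, PDLIM5 and DES, and whichever of ANKRD1, TCAP, CSRP3 and PDLIM3 had a spot. Of these 10 genes, 9 had a spot and ANKRD1 had none. They were measured by 13 of the 2688 probes, or 26 of the 5376 spots, and made up 9 of the 1521 genes with a name. ANKRD2, MYOT, PDLIM5, TCAP, CSRP3 and PDLIM3 had 1 probe each, LDB3 and DES had 2, and ACTN2 had 3.

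RNA of a MyoD-silenced clone, MyoD(-)cl.A8, was set against RNA of C2C12 control cells on days 1, 3 and 6 of differentiation. The clone came from C2C12 cells transfected with pcDNA 3.0 carrying MyoD in antisense orientation and selected with G-418, and it was the only clone used. C2C12 is a myoblast line of C3H mouse muscle that forms myotubes in low serum, here in medium with horse serum. The sources used here do not say whether control cells carried an empty vector. Each day had a pair of 2-colour arrays made for human genes, with the clone in Cy5 on replicate A and in Cy3 on replicate B.

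Z-discs anchor the thin filaments of neighbouring sarcomeres through crosslinks of alpha-actinin, and a shell of adaptor and LIM domain proteins ties them to the membrane, to desmin filaments and to signalling proteins. ANKRD2 belongs to the muscle ankyrin repeat protein family with ANKRD1, sits in the I-band beside titin, moves between sarcomere and nucleus and is known to respond to stretch. MyoD, a basic helix-loop-helix factor that drives commitment to skeletal muscle, binds E-boxes, short sequences of the form CANNTG, of which CAGCTG is the form best known for it. The study's title names Ankrd2 among genes controlled by MyoD, which is the question behind the values of ANKRD2.

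Promoter windows from 250 bases before to 50 bases after the gene start, taken from RefSeq (GRCm38.p6), were found for 8 of the 10 genes, not for Myot and Tcap. The windows of Ankrd2, the gene of the title, of Des, which held a CAGCTG, and of Ldb3, whose mean score lay farthest from 0, are shown with each CANNTG in capitals. They were picked after the scores and the motif counts were known.
Ankrd2, chr19:42035777-42036076, + strand: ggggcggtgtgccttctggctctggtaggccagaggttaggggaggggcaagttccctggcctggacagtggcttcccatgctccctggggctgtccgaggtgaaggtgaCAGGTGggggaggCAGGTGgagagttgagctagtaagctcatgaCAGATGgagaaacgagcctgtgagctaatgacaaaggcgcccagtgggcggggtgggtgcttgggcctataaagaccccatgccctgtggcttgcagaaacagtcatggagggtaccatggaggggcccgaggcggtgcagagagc
Des, chr1:75360042-75360341, + strand: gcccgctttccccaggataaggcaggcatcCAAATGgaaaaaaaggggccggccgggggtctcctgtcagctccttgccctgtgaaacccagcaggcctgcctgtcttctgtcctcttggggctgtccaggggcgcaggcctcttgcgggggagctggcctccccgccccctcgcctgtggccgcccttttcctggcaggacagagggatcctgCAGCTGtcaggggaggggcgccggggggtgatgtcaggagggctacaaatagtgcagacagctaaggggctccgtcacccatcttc
Ldb3, first of its 2 windows, chr14:34588632-34588931, - strand: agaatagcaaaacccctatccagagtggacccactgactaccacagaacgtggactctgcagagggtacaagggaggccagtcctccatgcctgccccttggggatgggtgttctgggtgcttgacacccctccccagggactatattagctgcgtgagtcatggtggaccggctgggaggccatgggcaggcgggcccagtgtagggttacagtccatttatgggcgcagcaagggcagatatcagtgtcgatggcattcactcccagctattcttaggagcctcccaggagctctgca

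CANNTG reads the same form on both strands, so a search of both strands finds each match once, and every CAGCTG is also a CANNTG. The Ankrd2 window held 3 matches, CAGGTG at positions -140 and -127 and CAGATG at -96, counted from the gene start to the first base of the match, and no CAGCTG. The Des window held CAAATG at -220 and CAGCTG at -36, and both Ldb3 windows held none. Of all 32851 windows of this length, 72.3% held a CANNTG, 17.6% held 3 or more, and 16.3% held a CAGCTG. Among the 8 genes with a window, 7 held a CANNTG and 2, Des and Pdlim3, held a CAGCTG. These 8 genes had 11 windows, so the counts per gene are not like for like with the shares per window. Windows with these letters were thus common, and a match is a description of the sequence only.

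The deposited values are scores per spot, with no statement of their scale, centring or direction. A positive score is read as higher in the silenced clone, which is the likely direction: the labels mark the clone as test and control cells as reference. No fold changes are given. Duplicate spots were averaged to a probe and probes of a gene to 1 value, each centred on the array's median over the features or, where probes are given separately, over the probes. The 2 arrays of a day count as 1 replicate, so errors are SDs over n = 3 days, no day has a test of its own, and p-values reflect nothing beyond the spread of these samples, part of which may be technical. Over probes, 2 arrays of a day correlated at 0.17 to 0.22, and 2 arrays from different days at -0.08 to 0.12. Duplicate spots correlated at 0.25 to 0.60, with a median absolute difference of 0.82 to 1.17 units. Replicate A minus replicate B, divided by 2, had an SD over probes of 0.69 on day 1 and 0.81 on days 3 and 6. The 5th and the 95th percentile of the probes' day means were -1.34 and 1.27 on day 1, -1.62 and 1.40 on day 3 and -1.60 and 1.67 on day 6. No spot intensity was used here, which leaves signal over background unknown, while precision is limited by the number of arrays. Binding of mouse RNA to human probes was not tested. In these bulk cultures fewer cells of a type and less RNA per cell cannot be told apart. MYOD1 itself averaged 0.15 ± 0.20 (limma's adjusted p = 0.983), but the sources used here do not give its probe's strand; since the construct is itself MyoD sequence, the score is no check of the silencing.

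The change shared by the 3 days was tested with limma on the day means, with p-values adjusted over all 2466 features (genes, and probes without a gene name). Of the 9 genes 0 passed, against 9 of all features (0.365%), with adjusted p from 0.534 to 0.998. At an unadjusted p under 0.05 there was 1 of the 9 genes, LDB3, against 164 of all 2466 features. Their means over the days lay above 0 for 4 genes and below 0 for 5, with a median of -0.01 against 0.00 over all features. With each probe as a feature of its own, 0 of the 13 probes passed, against 7 of 2688 (0.26%). An unadjusted p under 0.05 was found for 3 of the 13, against 184 of all 2688 probes. These 3 were LDB3 probe 1, ACTN2 probe 1 and DES probe 1.

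**Figure D1:**
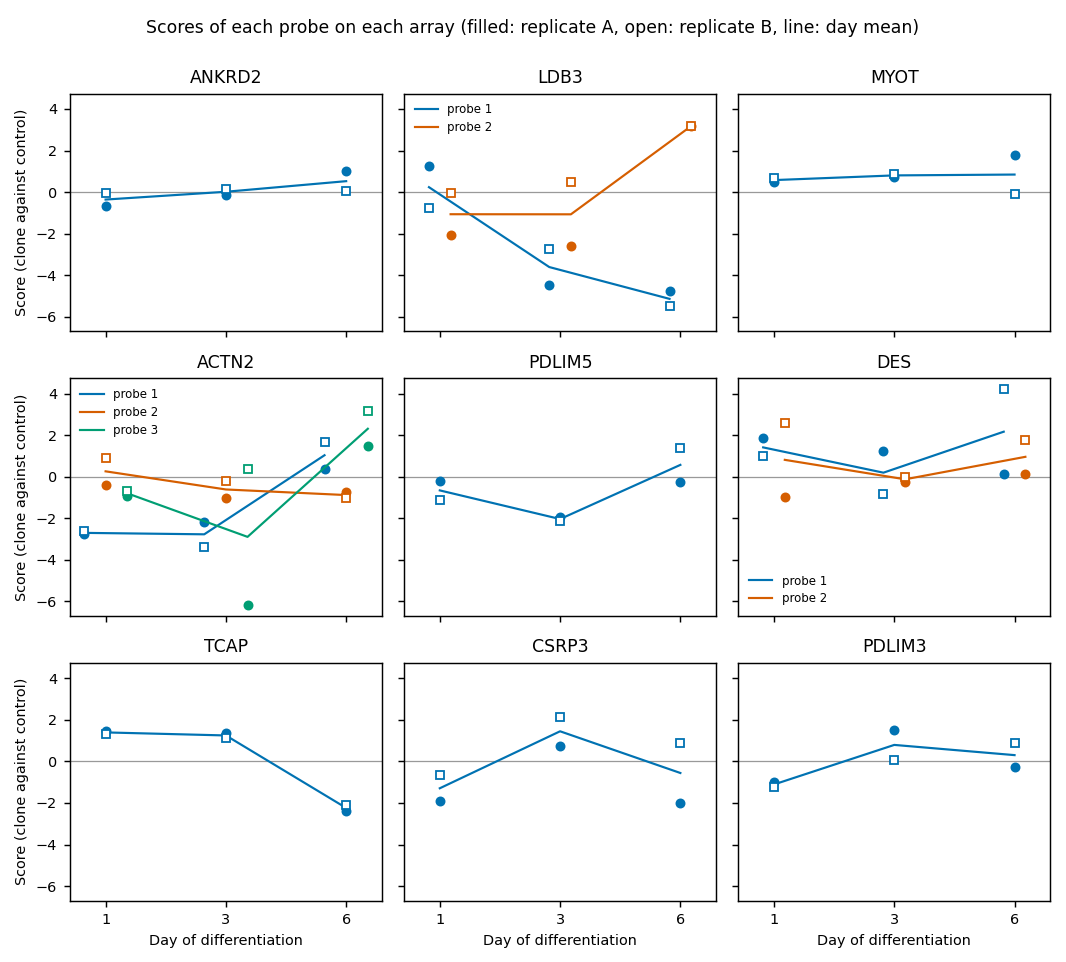
Score of each probe (y axis, score units, positive for higher in the silenced clone) against day of differentiation (x axis), 1 panel per gene, with filled points for replicate A, open squares for replicate B and a line through the day means. ANKRD2 stays within 1.01 units of 0 on all 6 arrays, while the LDB3 probes part to -5.13 and 3.18 on day 6 and TCAP lies at 1.11 or higher on days 1 and 3 and at -2.08 or lower on day 6 (each centred over the probes).

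ANKRD2 (Entrez Gene 26287) scored close to 0 on most arrays and did not pass the test. Its scores were -0.66 and -0.06 on the day 1 arrays (replicate A, then B), -0.16 and 0.18 on day 3, and 1.02 and 0.06 on day 6. The arrays lay on both sides of 0, with 3 above and 3 below, and the highest was the day 6 replicate A. Day means were -0.36, 0.01 and 0.54, and the mean over the days was 0.06 ± 0.45 (limma's adjusted p = 0.990). All 3 day means lay between the 5th and the 95th percentile of all probes. The order of the day means rested on differences near the array spread: both day 6 arrays lay above both day 1 arrays, yet the replicate B values of these days were 0.06 and -0.06.

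The 2 spots of the ANKRD2 probe behaved differently. The spot numbered 281 held, as deposited, 0.58 and 0.43 on day 1, 0.53 and 0.35 on day 3 and 0.27 and 0.26 on day 6. Its range of 0.32 units over the 6 arrays was the narrowest of all 5376 spots, whose median range was 3.23. The spot numbered 282 held -1.89 and -0.52 on day 1, -0.83 and 0.08 on day 3 and, on day 6, 1.63 and -0.10, for a range of 3.52. Spot 281 was thus above 0 on all 6 arrays and spot 282 on 2, and most of the probe's spread between arrays lay in spot 282. The narrow range was noticed after the values were seen.

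**Figure D2:**
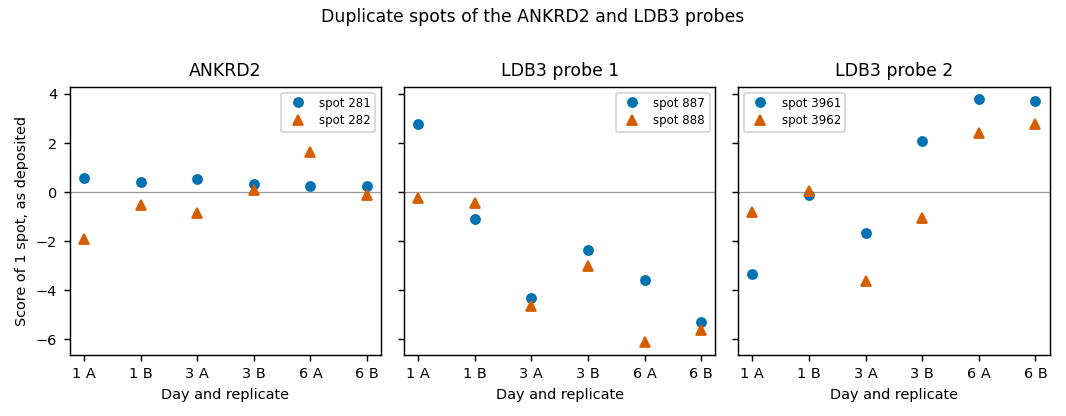
Score of each of the 2 duplicate spots, as deposited (y axis, score units), on each array (x axis, day and replicate), for the ANKRD2 probe and the LDB3 probes. ANKRD2 spot 281 spans 0.32 units over the 6 arrays and spot 282 spans 3.52, while both spots of LDB3 probe 1 lie below -2 on days 3 and 6 and both spots of LDB3 probe 2 lie above 2 on day 6.

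LDB3 (Entrez Gene 11155), also known as ZASP or Cypher, carries a PDZ domain that binds alpha-actinin and helps hold Z-discs together under load. Averaged over its probes, it scored -0.41 and -0.42 on day 1, -3.56 and -1.12 on day 3 and -0.80 and -1.13 on day 6. As this average, LDB3 was below 0 on 6 of 6 arrays. It was the only one of the 9 genes with 1 sign throughout, against 5.52% of all features. With probes taken separately, 0 of the 13 probes had 1 sign on all 6 arrays, against 5.43% of all probes. LDB3's mean of -1.24 ± 0.99 lay farthest from 0 among the 9 genes and did not pass (limma's adjusted p = 0.534). That rank depended on the arrays used and on the processing. DES lay farther from 0 without day 3 (1.34, with LDB3 at -0.69) and without the day 6 replicate A (1.38, with LDB3 at -1.29). It also did with the median of up to 10 neighbouring probes subtracted (1.14, with LDB3 at -1.10). DES probe 1, near the start of the spot order, had fewer than 10 such neighbours. ACTN2 lay farther from 0 than LDB3 without day 6 (-1.59 and -1.38), and CSRP3 without day 3 (-0.92).

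That average joined probes with opposite values. LDB3 probe 1 (spots 887 and 888) scored 1.26 and -0.78 on day 1, -4.47 and -2.73 on day 3 and -4.78 and -5.49 on day 6. Its day 3 mean of -3.60 was the 10th lowest of 2688 probes and its day 6 mean of -5.13 the 2nd lowest. All 8 spot values of days 3 and 6 were below 0, between -4.65 and -2.36 on day 3 and between -6.12 and -3.56 on day 6. Its mean over the days was -2.83 ± 2.77, with an unadjusted p of 0.000753 and limma's adjusted p = 0.101 over all probes, so it did not pass.

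LDB3 probe 2 (spots 3961 and 3962) scored -2.07 and -0.06 on day 1, -2.61 and 0.48 on day 3 and 3.16 and 3.19 on day 6. On day 6 it was the 9th highest probe, with its 4 spot values between 2.41 and 3.79. Its mean over the days was 0.35 ± 2.45 (limma's adjusted p = 0.985). On day 6 probe 1 was thus near the bottom and probe 2 near the top of all probes, on both arrays. Their gap of 8.31 units on that day ranked 1st among the 144 genes with several probes, whose gaps had a median of 1.16 and a 95th percentile of 3.21. Over the 6 arrays the probes correlated at -0.58. The annotation gives both probes the same RefSeq transcript, and the sources used here do not give where on it each binds. The mean of LDB3 therefore describes neither probe on day 6. These ranks were looked up after the values were seen.

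**Figure D3:**
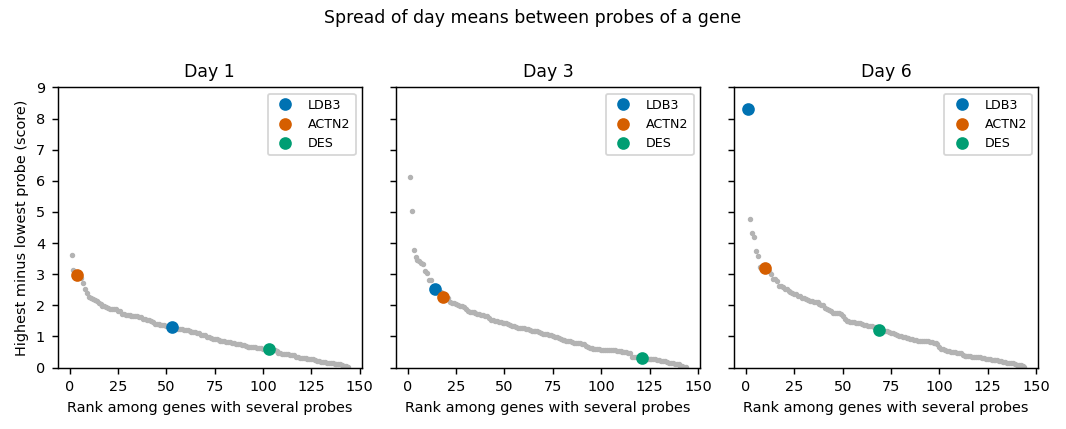
Difference between the highest and the lowest probe of a gene in day mean (y axis, score units) against the gene's rank (x axis) among the 144 genes with several probes, in 1 panel per day. LDB3 ranks 1st on day 6 with 8.31 units, ACTN2 ranks 4th, 18th and 10th on days 1, 3 and 6, and DES ranks 103rd, 121st and 69th.

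ACTN2 (Entrez Gene 88), the alpha-actinin that crosslinks thin filaments in the Z-disc, averaged -0.78 ± 1.49 over the days and did not pass (limma's adjusted p = 0.869). Averaged over its probes it scored -1.37 and -0.80 on day 1, -3.13 and -1.06 on day 3 and 0.37 and 1.30 on day 6. The arrays of days 1 and 3 were thus all below 0 and those of day 6 above 0. Without day 3 the mean was -0.12, and without day 6 it was -1.59.

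Its probes differed in size and, on days 1 and 6, in sign. ACTN2 probe 1 (spots 173 and 174) scored -2.78 and -2.62 on day 1, -2.17 and -3.36 on day 3 and 0.37 and 1.69 on day 6. Its day 1 mean of -2.70 was the 9th lowest of all probes and its day 3 mean of -2.77 the 24th lowest (mean over the days -1.48, limma's adjusted p = 0.636). On day 3 replicate A its spots stood at 1.07 and -5.45, so that value rests on spot 174. ACTN2 probe 2 (spots 589 and 590) scored -0.40 and 0.92 on day 1, -1.00 and -0.23 on day 3 and -0.75 and -1.02 on day 6, and was low on day 6, where the other probes were high. ACTN2 probe 3 (spots 3821 and 3822) scored -0.93 and -0.67 on day 1, -6.17 and 0.39 on day 3 and 1.46 and 3.15 on day 6. Its day 3 mean of -2.89 thus came from replicate A alone, where both spots were low at -5.64 and -6.74. The probes spread over 2.96, 2.28 and 3.19 units in day mean on days 1, 3 and 6.

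MYOT (Entrez Gene 9499), or myotilin, crosslinks actin and binds alpha-actinin and filamin. It scored 0.48 and 0.67 on day 1, 0.72 and 0.88 on day 3 and 1.79 and -0.08 on day 6. All arrays but the day 6 replicate B were above 0, and the day means of 0.58, 0.80 and 0.86 were the most alike among the 9 genes. Its mean of 0.74 ± 0.15 did not pass (limma's adjusted p = 0.794). Its variance enters the test after moderation toward that of all features, so the p does not follow from this small SD alone. The spots disagreed in size: as deposited, spot 2635 lay between 0.71 and 2.94 and spot 2636 between -1.56 and 1.12.

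The PDZ and LIM proteins PDLIM5 and PDLIM3, also called ENH and ALP, bind alpha-actinin at the Z-disc. PDLIM5 (Entrez Gene 10611) scored -0.22 and -1.10 on day 1, -1.96 and -2.12 on day 3 and -0.26 and 1.42 on day 6. It was lowest on day 3, where its 2 arrays lay on either side of -2. Its mean was -0.71 ± 1.31 (limma's adjusted p = 0.894), and -0.039 without day 3. The spots of PDLIM5 disagreed: as deposited, spot 2813 read -1.08 and -0.58 on day 3 and spot 2814 read -2.83 and -3.60. On day 1 replicate A they read 2.34 and -2.76, so the day 3 low rests mainly on spot 2814. PDLIM3 (Entrez Gene 27295) scored -1.01 and -1.22 on day 1, 1.49 and 0.08 on day 3 and -0.28 and 0.90 on day 6. Its day 1 arrays were both below 0 and its day 3 arrays both above, and the mean over the days was -0.01 ± 0.99 (limma's adjusted p = 0.998).

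CSRP3 (Entrez Gene 8048), the muscle LIM protein, and TCAP (Entrez Gene 8557), or telethonin, which caps the ends of titin, sit at the Z-disc as partners of each other. CSRP3 scored -1.92 and -0.67 on day 1, 0.74 and 2.14 on day 3 and -2.00 and 0.91 on day 6. It was below 0 on both day 1 arrays and above 0 on both day 3 arrays, while the day 6 arrays had opposite signs. Its mean was -0.14 ± 1.41 (limma's adjusted p = 0.983).

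TCAP scored 1.44 and 1.33 on day 1, 1.36 and 1.12 on day 3 and -2.39 and -2.06 on day 6. Its arrays stood together within each day, the 4 of days 1 and 3 above 0 and both of day 6 below. The mean over the days was 0.13 ± 2.05 (limma's adjusted p = 0.986). On day 6 replicate A the spots read 1.07 and -6.00, so that value rests on spot 10, while on replicate B they read -1.96 and -2.13. TCAP lies near the start of the spot order and had fewer than 10 neighbouring probes. With the median of those subtracted, its day 6 arrays stood at -3.79 and -1.36. With all arrays scaled to the same median absolute value, its day 6 arrays no longer both reached 2 units.

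DES (Entrez Gene 1674), or desmin, forms the intermediate filaments that link Z-discs of neighbouring myofibrils. Averaged over its probes it scored 0.44 and 1.78 on day 1, 0.48 and -0.42 on day 3 and 0.14 and 3.01 on day 6. Of the 6 arrays 5 lay above 0, and the highest, the day 6 replicate B, stood apart from replicate A of that day. Its mean of 0.90 ± 0.79 was the highest of the 9 genes and did not pass (limma's adjusted p = 0.741). Without the day 6 replicate B it was 0.43, below MYOT's 1.06.

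DES probe 1 (spots 11 and 12) scored 1.84 and 0.98 on day 1, 1.23 and -0.84 on day 3 and 0.12 and 4.21 on day 6, with a mean of 1.26 ± 0.99 (limma's adjusted p = 0.545). DES probe 2 (spots 3675 and 3676) scored -0.95 and 2.58 on day 1, -0.24 and -0.01 on day 3 and 0.14 and 1.77 on day 6, with a mean of 0.55 ± 0.59. Unlike those of LDB3, these probes had day means within 1.21 units of each other on every day, and over the 6 arrays they correlated at 0.33.

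Within single days a gene or probe was counted where it lay at least 2 units from 0 in 1 direction on both arrays, a threshold chosen with the distribution of values known. On day 1 this held for 0 of the 9 genes, against 0.811% of all features. On day 3 it held for 0 of the 9, against 1.26% of features. On day 6 it held for 1 of the 9, TCAP, which was lower, against 1.82% of features. Between days 1 and 6, the 4 possible pairings of arrays differed by 2 units or more in 1 direction for 1 of the 9 genes, again TCAP, downward, also against 1.82% of features.

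Taken as separate probes, more of the set was counted. On day 1 this was 1 of 13 probes, ACTN2 probe 1, lower, against 0.967% of all probes. On day 3 it was 2 of 13, LDB3 probe 1 and ACTN2 probe 1, both lower, against 1.41% of probes. On day 6 it was 3 of 13, LDB3 probe 2 higher and LDB3 probe 1 and TCAP lower, against 2.31% of probes. Between days 1 and 6 it was 5 of 13, with LDB3 probe 2 and ACTN2 probes 1 and 3 upward and LDB3 probe 1 and TCAP downward, against 2.34% of probes. Both LDB3 probes were thus among the counted probes with opposite directions, and probes of a gene share their target. With neighbouring probes subtracted, TCAP on day 6 and ACTN2 probe 1 on day 3 (-1.96 on replicate A) no longer counted, while DES probe 1 on day 1 (2.09 and 2.43) and ACTN2 probe 3 on day 6 (2.25 and 2.73) did. In that setting 2, 1 and 3 of the 13 probes counted on days 1, 3 and 6, against 0.893%, 1.15% and 1.97% of all probes. LDB3 probe 1 still counted on day 3 (-4.30 and -2.05) and day 6 (-4.58 and -4.53), as did LDB3 probe 2 on day 6 (2.23 and 2.91). On day 3 replicate A the neighbours of LDB3 probe 2 had a median of -2.32, and the probe minus its neighbours was -0.30.

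**Figure D4:**
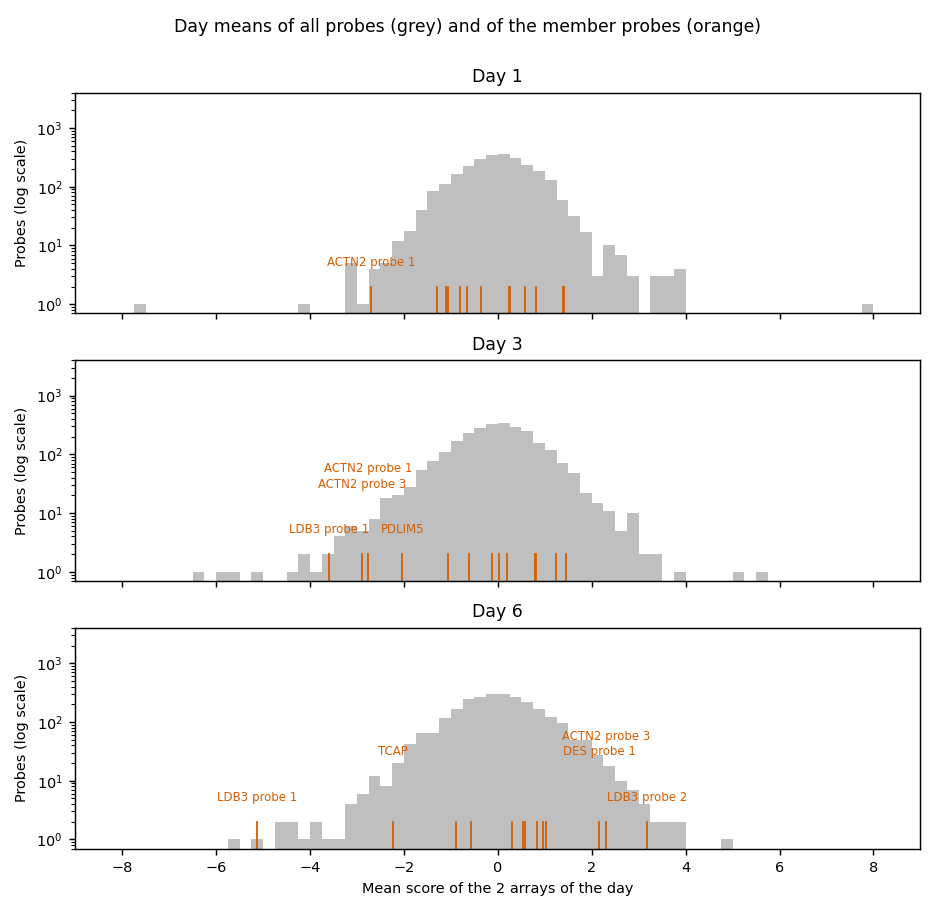
Number of probes (y axis, log scale) by day mean (x axis, score units), for all 2688 probes in grey, with the 13 probes of ANKRD2 and the Z-disc genes as orange ticks and those at least 2 units from 0 named. LDB3 probe 1 lies at -3.60 on day 3 and -5.13 on day 6, far in the lower tail, and LDB3 probe 2 at 3.18 on day 6.

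The 2 arrays of a day had the same sign for 10, 9 and 9 of the 13 probes on days 1, 3 and 6, against 53.6%, 53.6% and 56.6% of all probes. The 9 genes did not follow a common course over the days. The average of the ACTN2 probes and PDLIM5 were lowest on day 3 and above 0 on day 6 in day mean. Their 6 array values correlated at 0.80. The separate ACTN2 probes did not share this course: probe 1 was about as low on day 1 (-2.70) as on day 3 (-2.77). Probe 3 was low on day 3 on replicate A alone. TCAP ran opposite to the average of the ACTN2 probes (r = -0.82) and to ANKRD2 (r = -0.72). ACTN2 probe 2 differed from that average, with its lowest day mean on day 6 (-0.88), as for TCAP (-2.24). MYOT ran with ANKRD2 (r = 0.73), and PDLIM3 ran opposite to the average of the LDB3 probes (r = -0.85). The LDB3 probes themselves differed here, with r = -0.78 to PDLIM3 for probe 1 and 0.014 for probe 2. These are descriptions over 6 arrays that share clone, control and day, picked from 36 pairs.

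Among 1520 other named genes, those whose 6 array values were most like ANKRD2's were VAMP2 (r = 0.97), a vesicle fusion protein, TSC1 (0.96), a growth regulator of the mTOR pathway, and TAX1BP3 (0.96), a PDZ protein. With 1 array left out, the correlation of VAMP2 lay between 0.90 and 0.99, and 12 genes in all had r over 0.9. Most like the average of the LDB3 probes were ZDHHC18 (0.99), a palmitoyltransferase, the ribosomal protein RPL28 (0.98) and REXO1 (0.97), an exonuclease by annotation, and for REXO1 the lowest value with 1 array left out was 0.64. For the separate LDB3 probes, looked up after their values were seen, BSG, IFITM2 (0.99 each) and EHD1 (0.98) were most like probe 1, and YWHAE (0.98), the Z-disc protein MYOZ2 (0.97) and NDUFS8 (0.97) most like probe 2.

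Other proteins of the Z-disc and its surroundings were taken from lists. Of 33 other Z-disc genes 14 had a probe, 0 passed limma's test, and 9 lay above 0 and 5 below in mean over the days. Their median was 0.26, against 0.00 over all features, with day medians of -0.10, 0.23 and 0.50. The highest were CRYAB (1.18), the small heat shock protein that protects desmin and titin, CFL2 (0.77), the muscle cofilin, and XIRP1 (0.51), an actin-binding repeat protein. The lowest were PDLIM1 (-0.87), a relative of PDLIM3, MYOZ2 (-0.55), which binds calcineurin at the Z-disc, and MYPN (-0.20), or myopalladin. CRYAB had the lowest adjusted p of the list (0.620 in limma) and was its only gene at an unadjusted p under 0.05. Its arrays read 0.56 and -0.50 on day 1, 3.85 and 0.45 on day 3 and 0.35 and 2.40 on day 6, with 1 array of each later day apart from the other.

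In the M-band, which crosslinks the thick filaments, 3 of 6 listed genes had a probe and 0 passed in limma. CMYA5 averaged 0.31, MYOM2 0.21 and MYOM1 -0.26, with a median of 0.21. Of 21 genes of the costameres and intermediate filaments, which tie Z-discs to the membrane, 7 had a probe, 0 passed in limma, and the median was 0.37, with 4 genes above 0 and 3 below. SGCA, the alpha subunit of the sarcoglycan complex, scored 0.03 and 0.64 on day 1, 2.06 and 2.02 on day 3 and 1.49 and 0.42 on day 6, above 0 on 6 of 6 arrays. Its mean of 1.11 ± 0.86 did not pass (limma's adjusted p = 0.630). NES (0.48) and ITGA7 (0.41) followed as the highest, and TLN1 (-0.85), VIM (-0.17) and SGCB (-0.13) were lowest.

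**Figure D5:**
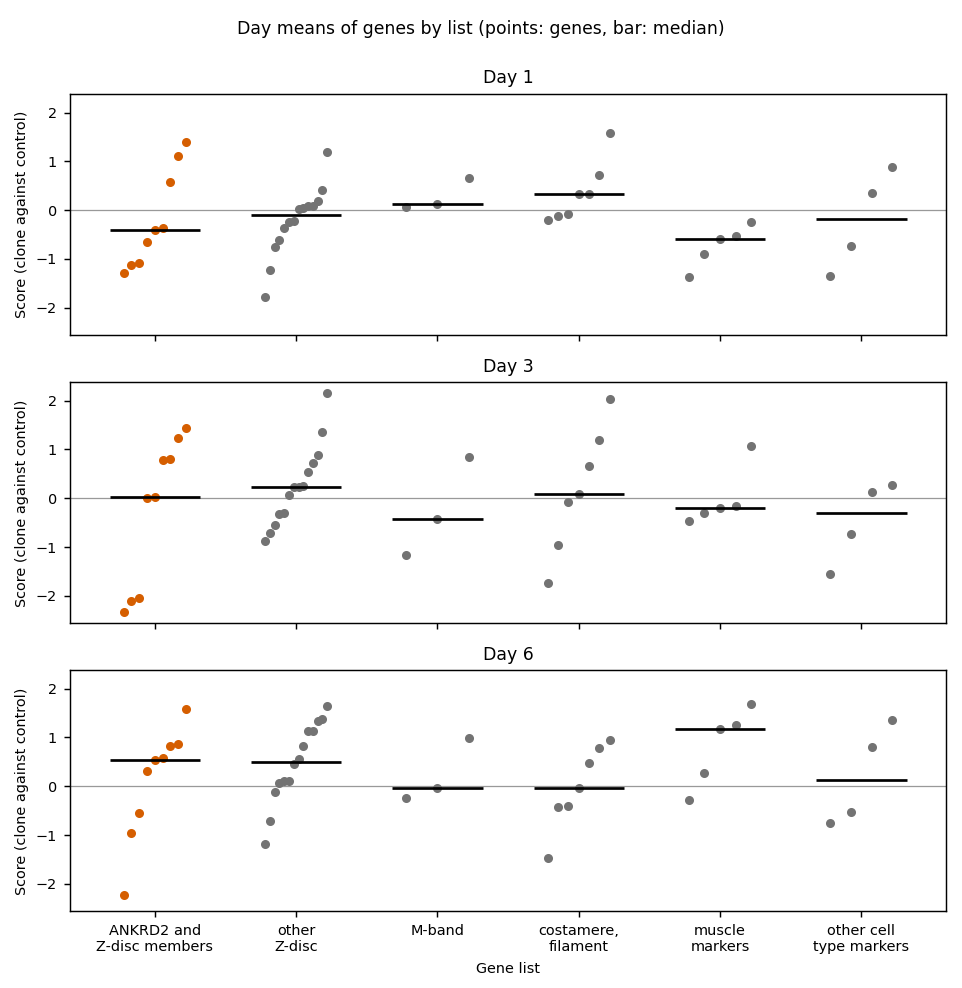
Day mean of each gene (y axis, score units; 1 point per gene, bar at the median) by gene list (x axis), in 1 panel per day, with ANKRD2 and the Z-disc genes named above in orange. The other Z-disc genes have medians of -0.10, 0.23 and 0.50 and the muscle markers of -0.60, -0.20 and 1.17 on days 1, 3 and 6.

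Markers of differentiated muscle had median scores that differed by day. For the 5 of 8 listed markers with a probe (ACTA1, CKM, TNNC1, TNNT1 and TNNT3) the medians were -0.60 on day 1, -0.20 on day 3 and 1.17 on day 6, and 0 passed limma's test. TNNC1, averaged over its 2 probes, went against this order, with day means of -0.60, 1.06 and -0.29. Its probe 1 followed the order (-0.46, 0.82 and 1.30) and its probe 2 did not (-0.73, 1.32 and -1.905). ACTA1's day 6 arrays stood apart at -0.58 and 3.97, and the 11 probes of CKM ran from -1.95 to 2.81 in day 6 mean. Of the 9 genes, 7 had a higher day mean on day 6 than on day 1, against 50.4% of all features, and TCAP and LDB3 had a lower one. Of 9 markers of other cell types 4 had a probe, CNN1 (0.25), SCD (0.04), FABP4 (-0.04) and TAGLN (-0.87), with medians of -0.18, -0.30 and 0.13, and 0 passed in limma. Their part in the values of the Z-disc genes was not tested. A score between 2 RNAs does not show whether a marker was present.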

How the data were processed

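Total RNA of the clone and of control cells was reverse transcribed, labelled by tyramide amplification and hybridised to 2-colour arrays, per the labels' protocols. The authors deposited 1 score per spot and array, whose filtering, background correction and normalization are not given in the sources used here. Of all values, 2 lay beyond 16 (highest 21.6), so they were not read as log2 ratios. GEO's platform annotation named 3486 of 5376 spots with 1 gene symbol, 0 with several and 1890 with none. In 1743 of 1743 named pairs, neighbouring odd and even spots carried the same symbol and were averaged. Features were centred on each array's median. Array medians as deposited lay between -0.07 and 0.03.

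The test was limma 3.58.1 (R 4.3.3) on 3 day means, two-sided, intercept against 0, Benjamini-Hochberg over all features, threshold 0.05. The procedure was also run on simulated data with independent noise and changes equal on all days. Values here often changed sign between days, so that run is not used to weigh the results. Promoters came from RefSeq's table of GRCm38.p6. Figures used Python 3.11.15 and matplotlib 3.10.9. The genes, lists, thresholds and alternatives were chosen with earlier results of these data known. Named are all genes of the rule with a spot, the 3 highest and 3 lowest genes of each list (all, where fewer than 7 were measured), and the 3 genes most correlated with ANKRD2 and with the gene farthest from 0. Alternatives were 6 separate arrays, a replicate block, values as deposited, scaled arrays, separate probes, subtraction of the median of up to 10 neighbouring probes, a robust prior (statmod 1.5.0), a threshold of 1 unit, and leaving out arrays and days. The neighbours were every other probe on both sides in spot order. Probes near the ends of that order, such as TCAP and DES probe 1, had fewer than 10. Chosen after seeing the data were separate spots and leaving out the first 40 spots.

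The replicate letters mark the dye orientation. Deviations of same-letter arrays from their day means correlated at -0.04 to 0.00 between days, so no shared effect of the letter was seen. Noise within arrays was large, so these values cannot show whether the letters also pair samples. The main test did not treat them as pairs.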

Additional observations from a re-analysis of the deposited data

Results flagged for a closer look

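For 10 differences between days, every array of a day lay on 1 side of 0 and every array of the other day on the opposite side, with probes taken separately. None of these differences was tested, since each day had 1 pair of RNAs. From day 1 to day 3 the difference in day mean (later minus earlier) was 2.74 for CSRP3 and 1.90 for PDLIM3. From day 1 to day 6 it was 0.88 for ANKRD2, 4.24 for LDB3 probe 2, 3.73 for ACTN2 probe 1, 3.10 for ACTN2 probe 3 and -3.63 for TCAP. From day 3 to day 6 it was 3.80 for ACTN2 probe 1, 1.08 for DES probe 2 and -3.49 for TCAP.

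Such opposite signs were common among all 2688 probes. They were found for 14.4% of probes between days 1 and 3 (2 of the 13 probes here), for 16.1% between days 1 and 6 (5 of 13) and for 13.9% between days 3 and 6 (3 of 13). Beside ANKRD2's difference of 0.88, the difference between the arrays of a day, divided by 2, had an SD over probes of 0.69 to 0.81. That SD is the scale of 1 day mean, and a difference between 2 day means has a larger spread.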

How the results depend on the processing

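None of the 9 genes, nor of the other Z-disc, M-band and costamere lists, passed limma's threshold under any alternative in which it was measured. The marker lists were not rerun. Leaving out the first 40 spots removed TCAP (spots 9 and 10) and DES probe 1 (spots 11 and 12), so TCAP had no value there. The replicate block was among the alternatives (0 of the 9 genes, with ANKRD2 at 0.06). ANKRD2's mean was -0.17 without day 6 and -0.10 to 0.22 with 1 array left out, on both sides of 0, and 0.20 with neighbouring probes subtracted. With 1 array or day left out, DES ranged from 0.43 to 1.38 and MYOT from 0.43 to 1.06. In the same runs LDB3 ranged from -1.65 to -0.69, ACTN2 from -1.59 to -0.12 and PDLIM5 from -1.35 to -0.039. Without the first 40 spots DES was probe 2 alone and stood at 0.55. LDB3 stood at 0.35 with probe 2 alone and at -2.83 with probe 1 alone. Other means close to 0 changed sign: with neighbouring probes subtracted TCAP (-0.066) and PDLIM3 (0.18); without day 1 TCAP (-0.49), CSRP3 (0.45), PDLIM3 (0.55), MYPN (0.079) and NES (-0.063); without day 3 TCAP (-0.42), MYOM1 (0.20) and VIM (0.61); without day 6 CSRP3 (0.071), MYPN (0.065), MYOM2 (-0.18) and SGCB (0.0075). With 1 array left out, CSRP3 ranged from -0.62 to 0.35, PDLIM3 from -0.24 to 0.23, MYPN from -0.51 to 0.12, CMYA5 from -0.0055 to 0.63, ITGA7 from -0.11 to 0.93, SGCB from -0.36 to 0.11 and VIM from -0.48 to 0.14.

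On days 1, 3 and 6, 2, 4 and 1 of the 9 genes lay at least 1 unit from 0 on both arrays, against 7.18%, 8.27% and 10.9% of all features. On 1 array alone, 0 genes reached 2 units on each day 1 array, against 5.52% and 6.24% of features. On day 3 these were LDB3 and ACTN2 on replicate A (8.76% of features) and, unlike them, PDLIM5 and CSRP3 on replicate B (8.56%). On day 6 they were TCAP and CSRP3 on replicate A (10.1%) and TCAP and DES on replicate B (9.57%). With separate probes 1, 2 and 3 of the 13 probes were counted, those of day 6 from 2 genes. With separate spots 4 of the 26 spots were counted on day 3 (3 genes; 2.12% of all spots) and 5 on day 6 (2 genes; 3.39%). On day 6 the count of genes was 0 with scaled arrays (1.38% of features) and 0 with neighbouring probes subtracted (1.66%). For the 4 differences between days 6 and 1 it was 2 genes at 1 unit (9.45% of features) and 5 of the 13 probes. The cause of these changes was not tested. Signal over background is unknown, so what dim spots contribute is unknown too, and 2 arrays a day allow no test of a day.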
